A study of Rattus norvegicus with 6 samples.

Results

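Extracellular matrix and matrix receptor genes were followed in RNA retrieved by 2 oligonucleotide pools from psoralen-treated rat pituitary cells. The genes were taken by name: collagen chains, laminin chains, numbered integrin chains, the Adamts family and the genes Fn1, Nid1, Nid2, Hspg2, Agrn and Sparc. Of 32883 genes in the deposited count table, 104 carried such a name, and 40 of them had at least 10 counts in at least 3 of the 6 libraries and were kept. The 40 genes were 15 collagens, 5 laminins, 9 integrins, 6 Adamts genes, agrin, and 4 genes that match a name pattern without encoding such a protein: Col4a3bp (a ceramide transfer protein), Itgb1bp1 and Itgb1bp2 (integrin-binding proteins) and Itgb3bp (a centromere protein). The selection used count levels, not the difference between the pools. Each of the 40 reached 10 counts in at least 1 library of both pools, and 33 reached it in all 6. Itga2 reached it in 3 libraries of pool B and 1 of pool A, so pool B alone sufficed to keep it. Adamts17 reached it in 3 libraries of pool A and 2 of pool B, so pool A alone sufficed.

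All 6 libraries came from GH4C1, an established rat somatolactotroph pituitary line, labelled wild type and grown in a medium with horse serum and fetal calf serum. In every library the cells had been crosslinked with psoralen, which joins base-paired nucleic acid strands, and the study sought RNAs bound directly to Neat1, a long noncoding RNA. The groups were oligo pool A (3 libraries) and oligo pool B (3 libraries), and no other factor separates them in the labels. The labels do not give the oligonucleotides of either pool or say whether a pool was a control, and they do not say whether the libraries came from separate cultures, so p-values measure the spread between these libraries, which may be technical. No input library was analysed here, so the amount of a transcript in the cells and its recovery by a pool cannot be told apart, and neither can fewer cells and less RNA per cell.

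Collagens are trimers of chains that share a glycine at regular steps. Fibril-forming collagens build the fibrils of cartilage and connective tissue, network-forming collagens such as type IV build the sheet of basement membranes, and fibril-associated collagens sit on fibril surfaces. Laminins are trimers of an alpha, a beta and a gamma chain and form the second sheet of basement membranes, which agrin links to cell surfaces. Integrins, dimers of an alpha and a beta chain, bind these proteins at the cell surface, and Adamts proteases process or cut them. In the pituitary, basement membranes surround the cords of endocrine cells, and much of the fibrillar collagen is made by stromal cells, which a cloned line lacks.

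Total counts per library ranged from 1826390 to 3685899. Levels are given as CPM, counts scaled to a fixed library size with TMM factors, on which scale a count of 0 allows up to between 0.868 and 1.54 CPM, a limit that covers counting error only. Counts were not corrected for gene length, so levels are compared between pools for 1 gene and not between genes. Of 12 markers of the somatolactotroph lineage, 8 had at least 10 counts in every library, among them Gh1, Prl and Pou1f1, while Isl1 was listed at 0. Their summed level was 8463 to 8639.8 CPM with pool A and 29131 to 36241 CPM with pool B, and of the 8 tested 4 were higher with pool A and 2, Chgb among them (log2 of pool A over pool B -2.94), higher with pool B. For 8 fibroblast and mural cell genes the summed level was 56.6 to 63.5 CPM with pool A and 33.4 to 35.6 CPM with pool B, nearly all of it Thy1 and Dcn, with Lum, Postn and Rgs5 at 0. The sums for 5 endothelial genes were 3.07 to 5.21 and 0 to 0.649 CPM, with Kdr, Tek and Emcn at 0, and those for 4 leukocyte genes were 14.2 to 21.3 and 15.6 to 23.1 CPM, with Cd3e at 0. Those for 6 folliculostellate genes were 45.4 to 51.0 and 18.2 to 32.4 CPM, nearly all of it Sox2, with Fxyd5 and Aldh1a1 at 0. The fibroblast, endothelial and folliculostellate sums were thus higher with pool A and the lineage sum was higher with pool B. Thy1 and Sox2 passed the edgeR test as higher with pool A (adjusted p of 0.0123 and 0.00048). The part of these marker differences in the results below was not tested.

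Most of the collagens that passed the test were recovered to a higher level with pool B. Of the 15 collagens, 8 were higher with pool B and 1, Col2a1, was higher with pool A past the threshold of the edgeR quasi-likelihood test, a Benjamini-Hochberg adjusted p below 0.05. Among all 11582 genes tested, the share was 22.0% for pool B and 18.6% for pool A by the same rule. The median log2 change of the collagens (log2 of the fold change, pool A over pool B) was -1.01, against 0.02 over all tested genes. Among the 21 laminins, integrins, Adamts genes and agrin, 4 were higher with pool B while 2 had the higher level with pool A, with a median of -0.18. By family the median was -0.50 for the 9 integrins, -0.37 for the 5 laminins and 0.02 for the 6 Adamts genes. Over all 40 genes 12 were higher with pool B, 4 were higher with pool A and 24 did not pass the threshold. These are counts over genes chosen with results of these data known, and the difference between collagens and the other genes was not tested as a set.

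Of the collagens, 7 of 15 passed the threshold with a level in pool B over 2-fold that in pool A, where 14.2% of all tested genes did. Among the other 21 matrix genes 1 was of that kind, and none was more than 2-fold higher with pool A, where 11.1% of all tested genes were. CPM ranges of the pools did not overlap for 10 collagens, 9 of them above in pool B and 1 in pool A. They did not overlap for 10 of the 21 other matrix genes, 8 above in pool B and 2 in pool A. Over all tested genes the ranges did not overlap for 50.0%, 26.2% being above in pool B and 23.8% in pool A. The log2 change was below 0 for 13 of the 15 collagens, for 14 of the 21 other matrix genes and for 49.4% of all tested genes. Itga2, which pool B alone sufficed to keep, is among the 8 above in pool B and the 14 below 0. With DESeq2 size factors, total counts alone or upper-quartile factors the median over all genes moved by 0.02, -0.14 and 0.10. A scaling moves all genes together, so the distance of the collagen median from it is nearly fixed by construction.

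**Figure D1:**
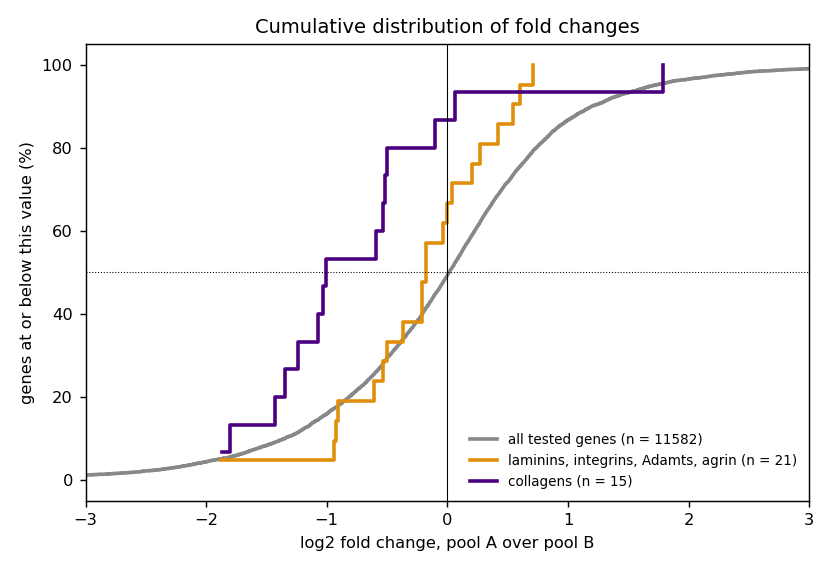
Cumulative share of genes (percent, y axis) at or below each log2 change of pool A over pool B (x axis, drawn from -3 to 3, beyond which some of all tested genes lie) for 15 collagens, 21 laminins, integrins, Adamts genes and agrin, and 11582 tested genes. The collagen curve crosses 50% at -1.01, the curve of the other matrix genes at -0.18 and that of all genes at 0.02.

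Within a library the same pattern can be read without any scaling. The ratio of all collagen counts to all laminin and integrin counts stood at 2.08 ± 0.16 with pool A against 3.38 ± 0.12 with pool B (SD, n = 3 each). Because Col24a1 held 59.8% ± 1.6 of the collagen counts with pool A and 66.2% ± 1.5 with pool B (SD, n = 3), the ratio was also taken without it. It then stood at 0.835 ± 0.049 with pool A against 1.14 ± 0.09 with pool B (SD, n = 3 each). The lowest pool B library, at 1.09, lay above the highest pool A library, at 0.886.

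All 6 fibril-forming collagens that were kept passed the threshold, 5 in favour of pool B and 1 of pool A. Among all tested genes 40.6% passed in either direction. Col24a1 encodes a minor fibrillar chain related to invertebrate collagens and had the largest number of counts among the 40 genes. It was at 1064, 1047 and 1243 CPM in pool A replicates 1, 2 and 3 and at 2136, 2210.3 and 2422 CPM in the pool B replicates. Every pool B library lay well above every pool A library, and the log2 change was -1.01 ± 0.13 (SE, edgeR adjusted p = 5.02e-07). In the table the row next to Col24a1 on one side is empty and the one beyond it is Odf2l, which was also higher with pool B (log2 change -1.38 ± 0.19 SE). On the other side Znhit6 did not pass (0.41 ± 0.22 SE, edgeR adjusted p = 0.149). The libraries were strand-specific per the labels, but the strand setting used in counting is not given in the sources used here.

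Col11a2 and Col27a1 showed larger differences. Col11a2, a chain of the type XI collagen that lies inside cartilage fibrils, was at 57.3, 46.4 and 53.8 CPM with pool A and at 141, 129 and 155 CPM with pool B. Its log2 change was -1.43 ± 0.17 (SE, edgeR adjusted p = 7.17e-08). Col27a1, another cartilage fibrillar chain, was at 54.1, 49.9 and 66.8 CPM with pool A and at 161, 149 and 126 CPM with pool B, a log2 change of -1.35 ± 0.17 (SE). For both genes the lowest pool B library was more than 1.5 times the highest pool A library.

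The type V chains, which regulate fibril diameter, moved less or rested on fewer counts. Col5a1 was at 164, 143 and 171 CPM with pool A and 268, 227 and 223 CPM with pool B, a log2 change of -0.59 ± 0.14 (SE, edgeR adjusted p = 0.0013). Col5a3 had 30, 20 and 27 counts with pool A and 46, 33 and 62 with pool B, and its log2 change was -1.07 ± 0.38 (SE, edgeR adjusted p = 0.0252). That call was lost when any pool A library or pool B replicate 3 was left out (edgeR adjusted p of 0.0569, 0.0612 and 0.0562 without pool A replicates 1, 2 and 3, and 0.135 without the pool B library), within a range of 0.0118 to 0.135 over all alternatives. The remaining chain of this type, Col5a2, had at most 19 counts in a library and was not kept.

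Col2a1, the chain of the main cartilage collagen, went against the other fibrillar chains. It was at 126, 96.8 and 109 CPM with pool A and at 40.9, 32.4 and 22.9 CPM with pool B. The pools were clearly apart, with a log2 change of 1.79 ± 0.21 (SE, edgeR adjusted p = 5.88e-08). Tmem106c, the row before it in the table, did not pass (0.00 ± 0.24 SE). Type XI collagen can hold a product of Col2a1 together with Col11a1 and Col11a2 chains, and Col11a1 had at most 3 counts in any library. The count ratio of Col2a1 to Col11a2 was 2.21, 2.08 and 2.03 in the pool A libraries and 0.290, 0.251 and 0.148 in the pool B libraries.

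The fibril-associated collagens that were kept were Col16a1, Col22a1, Col20a1 and Col9a2. Col16a1, found near small fibrils and basement membranes, had the log2 change furthest below 0 of all collagens. It was at 55.3, 37.2 and 37.7 CPM with pool A and at 157, 142 and 180.4 CPM with pool B, with a log2 change of -1.87 ± 0.18 (SE, edgeR adjusted p = 2.3e-09). Col22a1, a collagen of tissue junctions, was at 34.4, 42.5 and 40.8 CPM with pool A and at 64.9, 83.7 and 92.4 CPM with pool B. Its log2 change was -1.03 ± 0.20 (SE, edgeR adjusted p = 0.000124). Col20a1 had ranges that did not overlap, 33.3 to 51.0 CPM with pool A and 53.9 to 64.0 CPM with pool B, and just missed the threshold (-0.53 ± 0.22 SE, edgeR adjusted p = 0.0535). Without pool A replicate 3 its adjusted p was 0.0134, within a range of 0.0134 to 0.221 over the alternatives. Col9a2, a chain of the type IX collagen on cartilage fibrils, had 4 to 17 counts and a log2 change of 0.06 ± 0.66 (SE) that did not pass.

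Among network-forming collagens the type IV chains of basement membranes did not pass the threshold. Col4a4 was at 193, 224 and 195 CPM with pool A and at 202, 218 and 237 CPM with pool B. These ranges overlap, and the log2 change of -0.10 ± 0.14 (SE) was small on counts of 424 to 666 per library. Col4a3, which assembles with Col4a4 and lies in the next row of the table, had a log2 change of -0.52 ± 0.31 (SE), and Col4a1 one of -0.50 ± 0.69 (SE) on 3 to 25 counts. The usual remaining chain of the Col4a3 and Col4a4 trimer, Col4a5, was listed at 0 in all libraries. Col10a1, the network collagen of hypertrophic cartilage, was at 4.63, 5.26 and 4.95 CPM with pool A and at 22.7, 14.9 and 13.8 CPM with pool B. It had 16, 12 and 16 counts with pool A and 70, 29 and 38 with pool B. All pool A libraries lay below pool B, with a log2 change of -1.80 ± 0.44 (SE, edgeR adjusted p = 0.00152). Col6a5, a chain of beaded filaments, had 2 to 17 counts and a log2 change of -1.24 ± 0.74 (SE) that did not pass.

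**Figure D2:**
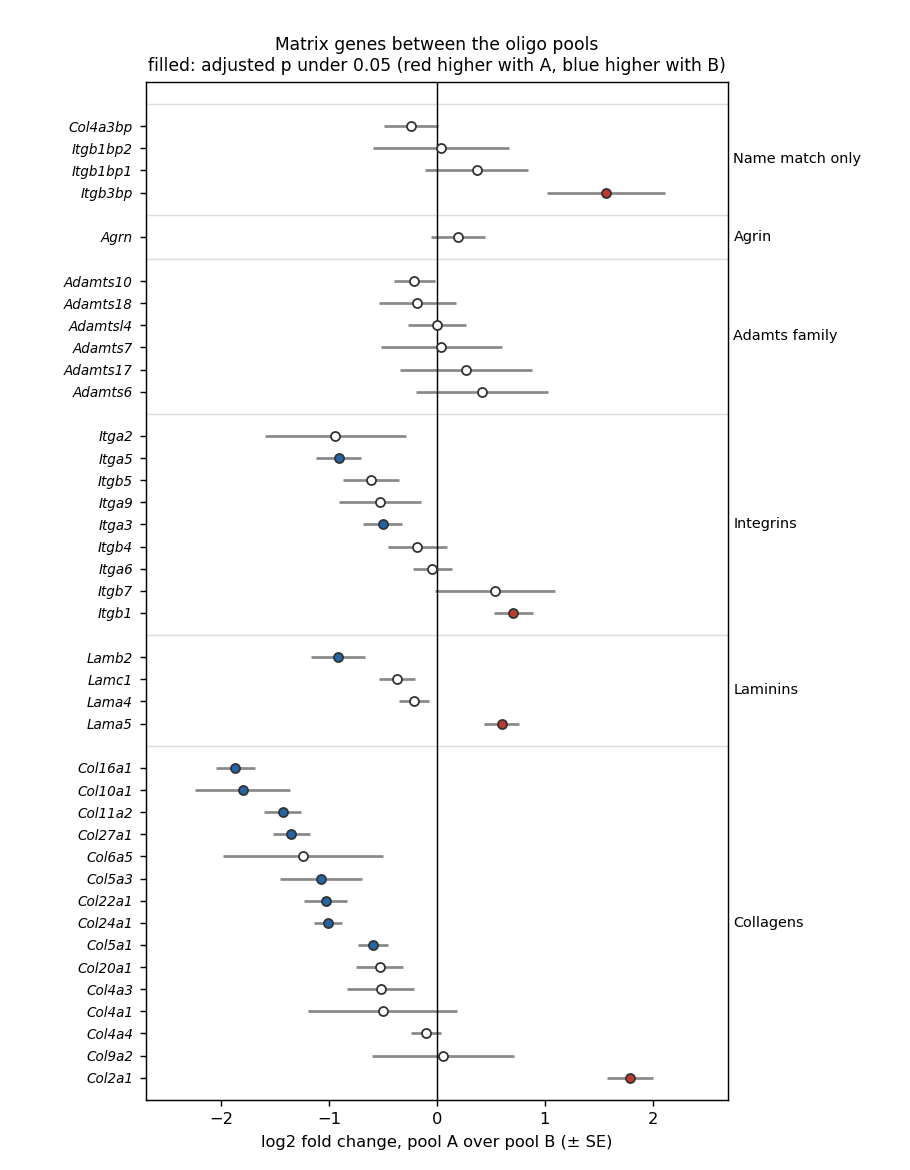
Log2 fold change of pool A over pool B (x axis, points, with bars of 1 SE) for 39 of the 40 genes, grouped by protein family (y axis); filled points have an edgeR adjusted p below 0.05 (red higher with pool A, blue higher with pool B). Collagens lie mostly to the left of 0, from Col16a1 at -1.87, with Col2a1 alone far to the right at 1.79, and the Adamts genes lie between -0.21 and 0.42.

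Laminin chains differed from each other in direction. Lamc1, the gamma chain of most laminins, was at 69.7, 67.5 and 86.0 CPM with pool A and at 87.3, 105 and 97.1 CPM with pool B. Its ranges barely separate, and its log2 change of -0.37 ± 0.17 (SE) did not pass (edgeR adjusted p = 0.0895). With total counts alone that adjusted p was 0.029, in a range of 0.029 to 0.29 over the alternatives.

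Lamb2 and Lama5, chains of laminin-521, went opposite ways. Lamb2 was at 24.0, 18.0 and 27.2 CPM with pool A and at 42.8, 49.3 and 40.0 CPM with pool B, a log2 change of -0.92 ± 0.25 (SE, edgeR adjusted p = 0.00356). Lama5, the alpha chain, was at 310.4, 205 and 252 CPM with pool A and at 148, 161 and 197 CPM with pool B. It was higher with pool A by 0.60 ± 0.16 (SE) on the log2 scale, with an edgeR adjusted p of 0.00258, although its highest pool B library came close to its lowest pool A library. Lama4, the alpha chain typical of vessels, was at 152 to 166 CPM with pool A and 175 to 191 CPM with pool B, a log2 change of -0.21 ± 0.14 (SE) that did not pass. Lamb1, the common beta chain, was listed at 0 in all 6 libraries, as were Lama2 and Lamc3.

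**Figure D3:**
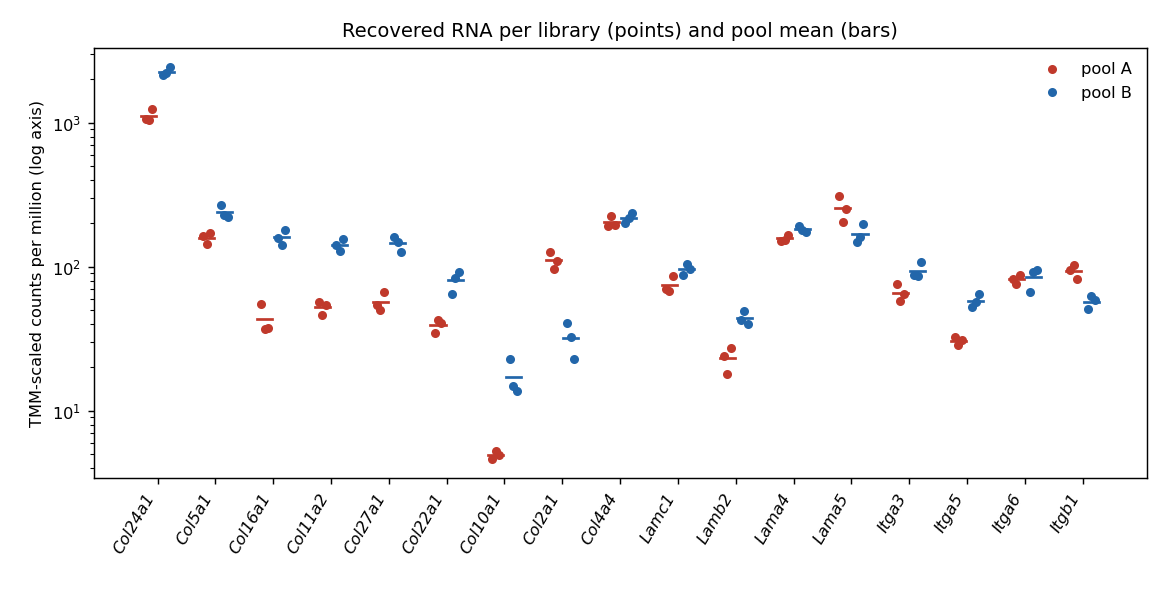
TMM-scaled CPM (log y axis) of 17 collagen, laminin and integrin genes in each library (points, 3 per pool, pool A red and pool B blue) with the pool mean (bars). Pool B points lie above all pool A points for Col24a1 (2136 to 2422 against 1047 to 1243 CPM), and below them for Col2a1, Lama5 and Itgb1.

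The integrin beta chain Itgb1 was higher with pool A and its alpha partner Itga5 higher with pool B. Itgb1, which pairs with most matrix-binding alpha chains, was at 94.6, 103 and 82.3 CPM with pool A and at 50.6, 62.7 and 58.6 CPM with pool B. Its log2 change was 0.71 ± 0.18 (SE, edgeR adjusted p = 0.00222). Itga5, the fibronectin receptor chain, was at 32.7, 28.5 and 30.9 CPM with pool A and at 52.9, 56.5 and 64.4 CPM with pool B. Its log2 change was -0.91 ± 0.21 (SE, edgeR adjusted p = 0.00108). The count ratio of Itgb1 to Itga5 was 2.66 to 3.62 with pool A and 0.910 to 1.11 with pool B.

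Of the laminin-binding integrin chains, Itga3 passed the threshold, and Itga6 and Itgb4 did not. Itga3 was at 76.4, 57.4 and 64.3 CPM with pool A and at 87.6, 85.8 and 108 CPM with pool B, a log2 change of -0.50 ± 0.18 (SE, edgeR adjusted p = 0.0253). That call was lost with upper-quartile factors and without replicate 2 or 3 of pool A or replicate 3 of pool B (edgeR adjusted p of 0.0739, 0.145, 0.072 and 0.151), in a range of 0.00638 to 0.151. Itga6 was at 75.8 to 87.5 CPM with pool A and 66.5 to 95.3 CPM with pool B, with a log2 change of -0.04 ± 0.18 (SE) whose sign turned with upper-quartile factors. Its epithelial partner Itgb4, which anchors hemidesmosomes, had a log2 change of -0.18 ± 0.27 (SE). The count ratio of Itgb4 to Itga6 overlapped between the pools, at 0.324 to 0.413 with pool A and 0.228 to 0.580 with pool B.

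The other integrin chains did not pass the threshold. Itgb5, a vitronectin receptor chain, had ranges that did not overlap, 17.5 to 47.3 CPM with pool A and 50.0 to 54.6 CPM with pool B, and a log2 change of -0.61 ± 0.26 (SE, edgeR adjusted p = 0.0631). Without pool A replicate 3 this p was 0.0101, in a range of 0.0101 to 0.381. Its alpha partner Itgav, which the name pattern does not take, had a log2 change of 0.02 ± 0.30 (SE). Itga2, a collagen receptor chain with 7 to 18 counts, had one of -0.94 ± 0.65 (SE), and Itga9 and Itgb7 had -0.53 ± 0.38 and 0.54 ± 0.56 (SE). The other known collagen-binding alpha chains were not kept, with Itga1 listed at 0, Itga10 at no more than 7 counts and Itga11 at no more than 1 count in a library.

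**Figure D4:**
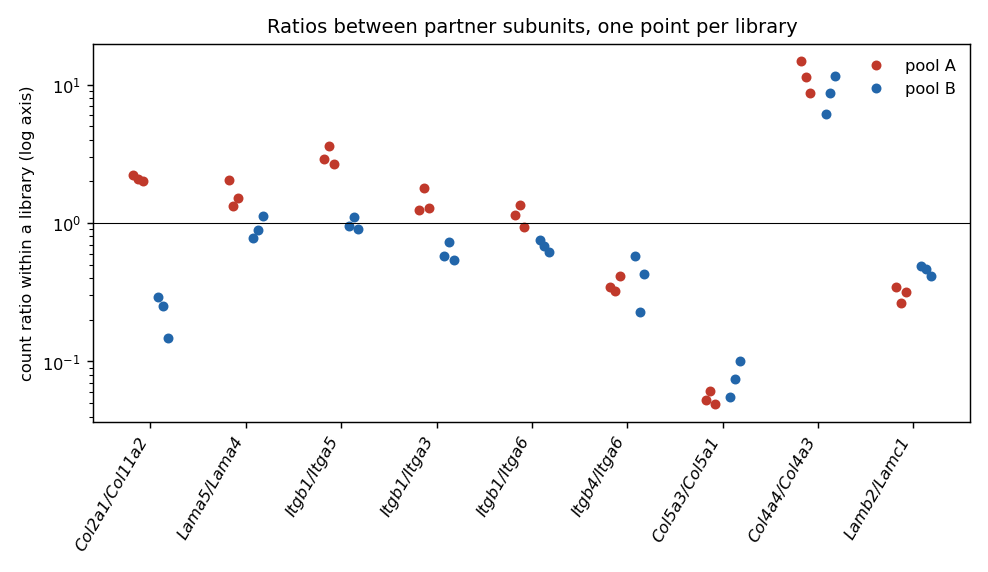
Count ratio of 9 pairs of related chains within each library (log y axis, 1 point per library, 3 per pool, pool A red and pool B blue). The line at 1 marks equal counts, which are not length-corrected, so the difference between pools and not the height of a point is the result. The ratio Col2a1/Col11a2 is 2.03 to 2.21 with pool A and 0.148 to 0.290 with pool B, while Itgb4/Itga6 overlaps between the pools.

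The 9 chain pairs were chosen after the fold changes had been seen, so their ratios are a description only. An exact permutation test of 3 against 3 libraries gave p of at least 0.100 for each pair. That is the lowest value it can reach, so it cannot decide whether a ratio differs. The mean difference in log2 ratio, pool A minus pool B, was 3.25 for Col2a1 to Col11a2, 1.62 for Itgb1 to Itga5 and 0.80 for Lama5 to Lama4.

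Of the 6 Adamts genes 0 passed the threshold in edgeR, 0 had an unadjusted p under 0.05, and 0 passed in DESeq2 or limma-voom, where 40.6% of all tested genes passed in edgeR. Adamts10, which acts on fibrillin microfibrils, was at 90.0, 63.5 and 73.0 CPM with pool A and at 107, 75.0 and 80.0 CPM with pool B. These ranges overlap, with a log2 change of -0.21 ± 0.19 (SE, edgeR adjusted p = 0.394). Adamtsl4, an Adamts-like glycoprotein of the eye's zonule, had a log2 change of 0.00 ± 0.27 (SE) at mean levels of 34.5 and 34.6 CPM. Adamts6, Adamts7, Adamts17 and Adamts18 had between 6 and 56 counts per library and log2 changes from -0.18 to 0.42. Agrn, the proteoglycan that clusters acetylcholine receptors and binds laminin, was at 38.5, 28.0 and 47.0 CPM with pool A and at 37.0, 37.0 and 25.8 CPM with pool B. Its log2 change was 0.20 ± 0.25 (SE, edgeR adjusted p = 0.57).

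Of the 4 genes that only share a name pattern, Itgb3bp was higher with pool A and the other 3 did not pass. Itgb3bp had 13, 44 and 68 counts with pool A and 11, 13 and 13 with pool B, so its replicate 1 of pool A lay at the pool B level. The log2 change was 1.57 ± 0.55 (SE, edgeR adjusted p = 0.0242). The call was lost, among other settings, with limma-voom (adjusted p = 0.163) and without replicate 2 or 3 of pool A (0.117 and 0.159) or replicate 1 or 3 of pool B (0.0832 and 0.0625), in a range of 0.00165 to 0.163. Counting Col4a3bp (log2 change -0.24 ± 0.25 SE) among the collagens, as its name would have it, gave a collagen median of -0.80.

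Most of the classical stromal matrix genes were at or near 0. Of the 64 genes with a matching name that were not kept, 21 were listed at 0 in all 6 libraries, and the other 43 had at most 31 counts in any library. Col3a1, Col6a2 and Sparc, an abundant collagen-binding glycoprotein, were listed at 0. Col1a1, the main collagen of bone and skin, had at most 3 counts, Fn1, which encodes fibronectin, at most 5, and the basement membrane linkers Nid1 and Nid2 at most 8 and 7. Other genes used by every cell are also at 0 in this table, so a listed 0 is not read as absence of the RNA. At the limit of the selection, Adamts6 and Col6a5 reached 10 counts in exactly 3 libraries, while Adamts4, Adamts13, Adamtsl5 and Col4a2 did so in 2. None of the 64 passed edgeR's filter on low counts, so none was tested, whereas all 40 kept genes were.

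Of 37 listed names for collagen synthesis, secretion and crosslinking, 29 were in the table and 20 were tested, with 6 higher with pool B, 3 with pool A and a median log2 change of 0.00. The 9 that passed were 45.0% of those tested, near the 40.6% of all tested genes. Sec13, a coat protein of the vesicles that leave the endoplasmic reticulum, was at 152 CPM on average with pool B and 30.1 with pool A, a log2 change of -2.34 ± 0.18 (SE). Plod1, a lysyl hydroxylase, and P3h1, a prolyl 3-hydroxylase, were higher with pool B (-1.16 ± 0.26 and -1.15 ± 0.38 SE). The P3h1 call was lost without replicate 1 of pool B or replicate 2 or 3 of pool A (edgeR adjusted p of 0.184, 0.0712 and 0.0811). Colgalt1, which adds galactose to collagen hydroxylysine, was higher with pool A (1.08 ± 0.21 SE). Serpinh1, the collagen chaperone of the endoplasmic reticulum, was listed at 0 in all libraries.

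Few adhesion genes that act inside the cell passed the threshold. Of 24 tested genes of the integrin adhesion complex, 2 were higher with pool B while 2 had the higher level with pool A, with a median log2 change of -0.08, where 40.6% of all tested genes passed in either direction. Parva, a partner of integrin-linked kinase, was higher with pool B (-1.09 ± 0.33 SE). Kank2, a talin-binding protein, and Bcar1, a scaffold phosphorylated on adhesion, were higher with pool A (1.97 ± 0.44 and 0.97 ± 0.19 SE). Tln1, Vcl, Pxn, Ptk2 and Ilk, the core of focal adhesions, had log2 changes between -0.53 and 0.29 and did not pass. With total counts alone Tln1 and Vcl passed as higher with pool B (edgeR adjusted p of 0.0112 and 0.0257). Tln1 also passed with limma-voom (adjusted p = 0.0459). Ptk2 passed as higher with pool A under upper-quartile factors (edgeR adjusted p = 0.0297).

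Of 21 tested genes for other matrix receptors and basement membrane partners, 5 were higher with pool B while 3 had the higher level with pool A, with a median log2 change of -0.11. The 8 that passed were 38.1% of those tested, near the 40.6% of all tested genes. Tinagl1, a basement membrane glycoprotein, had a log2 change of -2.22 ± 0.35 (SE), and Sgcb, a sarcoglycan, one of -1.30 ± 0.38 (SE). Bcam, a receptor for the laminin alpha chain encoded by Lama5, was higher with pool A (1.30 ± 0.21 SE), as was Gpc1, a cell-surface heparan sulfate proteoglycan (0.93 ± 0.26 SE). The number higher with pool B was 2 without replicate 2 of pool A and 3 without replicate 2 or 3 of pool B. Dag1, the dystroglycan that binds laminin and agrin, did not pass (0.08 ± 0.19 SE).

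Of 12 tested metalloproteinases and inhibitors, 2 were higher with pool A, 2 were higher with pool B and the median log2 change was 0.05. The 4 that passed were 33.3% of those tested, against 40.6% of all tested genes. Adam10, a sheddase of membrane proteins, was at 103 CPM with pool A and 19.8 CPM with pool B, a log2 change of 2.37 ± 0.22 (SE), and Mmp15, a membrane-bound metalloproteinase, had 1.13 ± 0.34 (SE). The Mmp15 call was lost without pool A replicate 1 or pool B replicate 3 (edgeR adjusted p of 0.0546 and 0.055). The metalloproteinase inhibitors Timp1 and Timp2 were higher with pool B, with -2.93 ± 0.79 (SE) for Timp1 on pool A counts of 5, 0 and 3 and pool B counts of 28, 10 and 17, and -1.29 ± 0.19 (SE) for Timp2.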

How the data were processed

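The members and gene lists were chosen with earlier results of these data known. The authors deposited raw counts per gene for 6 libraries, and STAR and featureCounts are named, without versions, per the submitters' processing notes; the genome build, annotation and strand setting are not given in the sources used here. All other values were computed from these counts. The test was edgeR's (version 4.0.16, R version 4.3.3; TMM, edgeR's filter by group, quasi-likelihood, pool as the only term), with Benjamini-Hochberg adjustment over all 11582 tested genes and a threshold of 0.05. Standard errors come from the fold change and the F statistic. CPM uses TMM-scaled library sizes. The test was also run on simulated counts, and the outcome is not given here. Genes described in full were those with the 6 largest fold changes in each direction past the threshold at a mean of at least 20 counts, the gene with the highest CPM of each family, the linker genes and their trimer or dimer partners, with up to 4 per pathway list; others were added after their values were seen. Alternatives were other scalings, other filters, DESeq2 1.42.0, limma-voom (limma 3.58.1), a replicate block and leaving out each library. Within pools the chi-square of 2 libraries per degree of freedom was at least 5.86, so no library was a copy. Deviations of same-numbered libraries correlated with r of 0.0409, -0.0195 and 0.02, and they were not treated as pairs. Paralogous chains and overlapping or neighbouring genes can share reads under an unstated counting setting. Some genes are not reported here, though counts and sums over groups include them. Hspg2 is not analysed here, and gene lengths, coordinates and sequences were not used here.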

Additional observations from a re-analysis of the deposited data

How the results depend on the processing

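Across 14 alternatives, 13 of the 16 genes past the threshold stayed past it each time, the exceptions being Col5a3, Itga3 and Itgb3bp. Of 280 refits of 20 described genes, 261 kept direction and side of the threshold, 14 lost the call, 1 gained it (Lamc1) and 4 turned the sign, all of Itga6: 0.06 with upper-quartile factors, and -0.20 to 0.05 when a library was left out (0.04 without pool A replicate 2, 0.02 without pool B replicate 2, 0.05 without pool B replicate 3). Genes higher with pool B numbered 10 to 12 and genes higher with pool A 3 to 4 when a library was left out, and the collagen median, Col4a3bp included, was -0.89 to -0.75. Over all alternatives 13.5% to 25.2% of all tested genes were higher with pool B. With the replicate block 14 genes were higher with pool B and 3 with pool A; Col20a1 and Itgb5 passed and Itgb3bp did not, and the numbers do not pair the libraries. In the integrin adhesion list 4 genes were higher with pool A under upper-quartile factors and 1 with the stricter filter (10 counts in each of the 6 libraries), and 4 were higher with pool B with total counts alone. With that stricter filter 1 gene of the metalloproteinase list was higher with pool B, since fewer genes were tested. Without a library, 1 to 3 genes of that list were higher with pool A, and 2 to 5 of the matrix receptor list were higher with pool B. The cause of the other changes was not tested. Of the 18 genes with a mean under 100 counts 4 passed, against 12 of the other 22; the median coefficient of variation between replicates was 35.3% and 26.5% (pools A and B) in the first group and 14.1% and 12.2% in the second, and the part of depth in the calls was not tested.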

Other observations

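Genes in rows next to matrix genes of the table differed between the pools in the same direction in some cases and not in others. Rxrb, the row before Col11a2, was higher with pool B, as Col11a2 was (-0.54 ± 0.17 SE, edgeR adjusted p = 0.0116). Rhbdd1, the row before Col4a4, was higher with pool B (log2 fold change -1.73 ± 0.19 SE), while Col4a4 itself had -0.10 ± 0.14 (SE). Near Lama5, which was higher with pool A, Osbpl2 and Cables2 were higher with pool B (-0.80 ± 0.19 and -1.53 ± 0.23 SE), and the adjacent Adrm1 and Rps21 did not pass the threshold (-0.13 ± 0.25 and 0.11 ± 0.16 SE). Pef1, the row after Col16a1, was higher with pool A (1.76 ± 0.59 SE, edgeR adjusted p = 0.0185) on at most 41 counts.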
